A study of Mus musculus with 13 samples.

Results

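Imprinted growth genes, 10 in number, were read in the back skin of newborn mice: *Dlk1*, *Meg3*, *Rtl1*, *Rian* and *Mirg* of the Dlk1-Dio3 domain on chromosome 12, *Igf2* and *H19* of the Igf2-H19 domain on chromosome 7, and *Peg3*, *Plagl1* and *Cdkn1c*, which lie in 3 other imprinted regions. The genes were chosen by name, with earlier results of these data known, as 10 of the 49315 genes in the count tables, and all 10 were found. RNA-Seq of full-thickness back skin at P4 covered 3 WT libraries and 3 libraries labelled DKO, from *K14Cre+Kctd1fl/flKctd15fl/fl* littermates. In these mice the Cre recombinase is driven by the keratin 14 promoter, which is active in keratinocytes, so that fibroblasts, fat, muscle and vessels of the same skin piece keep *Kctd1* and *Kctd15*, whose products bind each other and restrain the AP-2 transcription factors. Whether the WT littermates carried Cre or a floxed allele is not given in the sources used here. The libraries held between 11263863 and 17643043 counts on genes. A floor of 3 counts in a library amounted to 0.17 to 0.266 CPM (counts scaled to library size).

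An imprinted gene is expressed mainly from the allele inherited from 1 parent, and many imprinted genes set fetal and early postnatal growth. *Igf2*, *Dlk1*, *Rtl1*, *Peg3* and *Plagl1* are expressed from the paternal allele, and *H19*, *Meg3*, *Rian*, *Mirg* and *Cdkn1c* from the maternal allele. In the Igf2-H19 domain both genes use enhancers downstream of *H19*, and in the Dlk1-Dio3 domain a long row of noncoding RNAs, miRNAs and small nucleolar RNAs follows *Meg3* on the maternal chromosome. Most of these genes are high in fetal tissues, among them skeletal muscle, and fall after birth. Counts per gene do not separate the parental alleles, so imprinting itself was not measured.

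The noncoding members are host or neighbor transcripts of miRNAs, and the mature sequences that mark each locus are shown here so that the small RNA genes within the 2 domains can be told from their hosts. They are taken from RefSeq (GRCm38.p6), where all 10 miRNA genes looked up were found, and the capitals mark the seed, bases 2 to 8. The 20 mature sequences of these genes carry 20 distinct seeds. The first pair lies in an exon of *H19* (chromosome 7, 142577112 to 142577133 and 142577078 to 142577099, minus strand), and the next lies in an intron of *Igf2* (chromosome 7, 142654932 to 142654952, minus strand). The following 3 lie on the plus strand opposite the *Rtl1* exon (chromosome 12, starting at 109592888, 109591781 and 109594565), and the last 3 come from the miRNA rows with the most counts in the Dlk1-Dio3 domain (chromosome 12, plus strand, starting at 109586368, 109580283 and 109611841).
miR-675-5p: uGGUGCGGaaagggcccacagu
miR-675-3p: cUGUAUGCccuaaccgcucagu
miR-483-3p: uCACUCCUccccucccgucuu
miR-127-3p: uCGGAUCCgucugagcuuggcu
miR-433-3p: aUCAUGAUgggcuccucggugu
miR-434-3p: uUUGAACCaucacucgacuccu
miR-665-3p: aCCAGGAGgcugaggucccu
miR-493-3p: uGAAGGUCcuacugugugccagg
miR-1188-5p: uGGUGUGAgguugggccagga

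The genotype labels were checked first. *Kctd1* counts, normalized to library size, were 443, 410 and 442 in the WT libraries (replicates 1 to 3) and 506, 985 and 735 in the libraries labelled DKO. *Kctd15* had 736, 737 and 763 against 1130, 1509 and 1325. Both targeted genes were thus higher, not lower, in each library labelled DKO, and since counts over a whole gene do not show whether a floxed exon was lost in keratinocytes, they neither check nor contradict the genotype labels, on which every direction below rests. DKO replicate 1 stood apart: it was the highest of the 6 libraries for all 10 imprinted genes, and the fold change of each is given with and without it. Its title carries the number 40972, shared with WT replicate 3, and the other 4 libraries carry 47347. What this number marks is not stated, and values within each number are given beside the pooled ones.

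All 10 imprinted genes were higher in the skin labelled DKO, against 52.9% of the 20168 genes tested, and the median log2 fold change was 0.84, against 0.02 over all genes tested. The 10 genes rose and fell together over the 6 libraries (Pearson r of log2 CPM from 0.67 to 0.998), so they do not count as 10 independent observations. All 10 were also higher without DKO replicate 1, where their median log2 fold change was 0.41 and 5 had an unadjusted p under 0.05 in edgeR. In that refit 10460 of all 20679 genes tested were higher, with a median of 0.0045. At an unadjusted p under 0.05, 913 of these genes were higher and 616 lower. With all 6 libraries, for 5 of the 10 (*Dlk1*, *Meg3*, *Rtl1*, *Igf2* and *H19*) every library labelled DKO was above every WT library, which held for 7.24% of all genes. For the other 5 (*Rian*, *Mirg*, *Peg3*, *Plagl1* and *Cdkn1c*) the groups overlapped. Within the libraries of number 47347 and within those of 40972, the libraries labelled DKO were above the WT libraries for all 10 genes, which held for 12.1% of all genes (18.5% for number 47347 alone). None of the 10 passed an adjusted p-value under 0.05 in edgeR (quasi-likelihood test, Benjamini-Hochberg over all genes). A gene was called when it passed that level and its log2 fold change exceeded 1 in size, which held for 0.0694% of all genes, and for 0.0397% as called higher. In that test 7 of the 10 had an unadjusted p under 0.05, against 7.50% of all genes, with 4.96% higher and 2.54% lower. DESeq2, the tool named in the study's methods, called 4 of the 10 (*Igf2*, *Dlk1*, *H19* and *Rtl1*), against 0.466% of all genes called higher, and gave *Meg3* an adjusted p-value of 0.0186 below the fold threshold. Changes in a piece of skin can come from the share of a cell type or from the RNA of each cell, and bulk counts cannot tell these apart. P-values here measure the spread between libraries, which may be partly technical, since the labels do not describe how the replicates were taken.

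**Figure D1:**
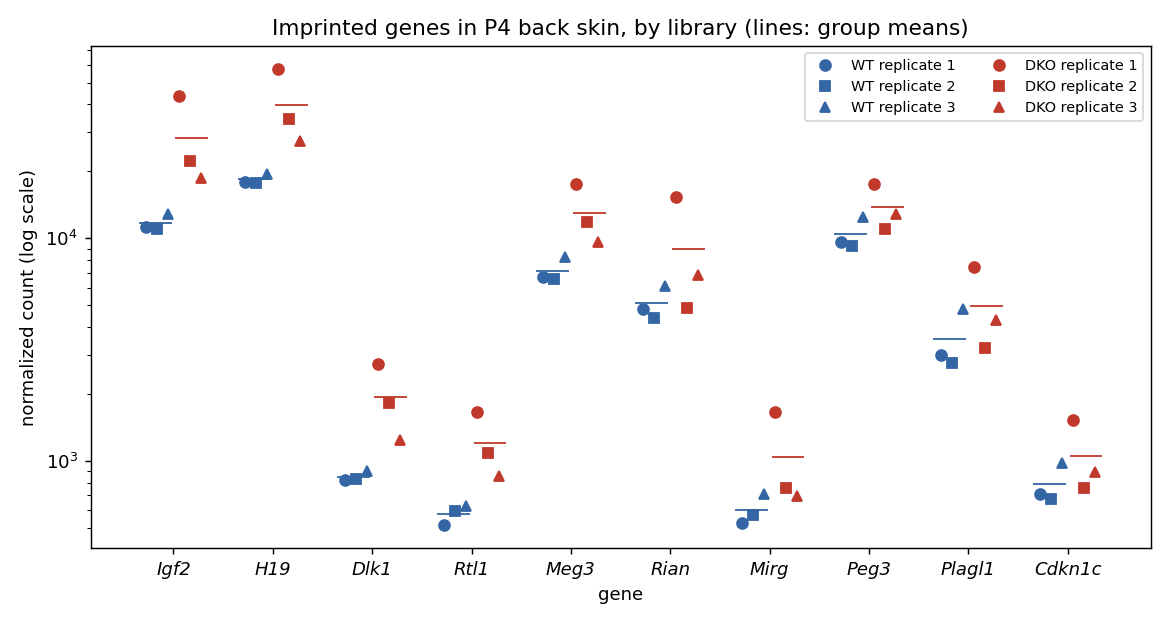
Normalized count (log scale) of each imprinted gene in the 3 WT (blue) and 3 DKO (red) libraries, with a line at each group mean. DKO replicate 1 (red circle) is the highest point for each of the 10 genes, and the red points clear the blue ones for *Igf2*, *H19*, *Dlk1*, *Rtl1* and *Meg3*.

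The Igf2-H19 domain held the most abundant members. Per kilobase of counted length, the WT level of *H19* was 511 ± 27.5 CPM per kb and that of *Igf2* 135 ± 11.6 (SD, n = 3), followed by *Peg3* at 51.6 ± 8.57. *Plagl1* (29.7 ± 9.49), *Meg3* (26.1 ± 3.43), *Cdkn1c* (25.5 ± 5.45) and *Rian* (19.2 ± 3.38) came next. The spreads of neighbors in this order overlap, whereas the WT libraries of *Meg3* were all above those of *Rian*. Within each WT library, *Cdkn1c* was also above *Rian*. *Dlk1* (9.92 ± 0.494), *Rtl1* (5.996 ± 0.611) and *Mirg* (5.44 ± 0.860) were the lowest. The spreads of the last 2 overlap, although *Rtl1* was above *Mirg* within every library. In the skin labelled DKO the corresponding means were 1107 ± 443 for *H19*, 324 ± 154 for *Igf2* and 9.39 ± 4.93 for *Mirg*, so that *H19* and *Igf2* stayed the highest and *Mirg* the lowest. *Igf2* and *H19* together took between 0.192% and 0.217% of all counts in WT libraries and 0.684%, 0.343% and 0.307% in DKO replicates 1 to 3.

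*Igf2* (ENSMUSG00000048583, GRCm38 chromosome 7, 142650766 to 142666816, minus strand) encodes insulin-like growth factor 2, the main fetal growth factor of the insulin-like family. WT replicates 1 to 3 held 11287, 11075 and 12909 normalized counts of it, and the libraries labelled DKO held 43469, 22206 and 18663. The 3 WT values lay close together, while the lowest DKO value was above the highest WT value and DKO replicate 1 was far above the other two. The group means were 11757 ± 1003 and 28113 ± 13417 (SD, n = 3), and the log2 fold change was 1.26 (SE 0.283, edgeR adjusted p = 0.234, DESeq2 adjusted p = 0.00110). Without DKO replicate 1 the log2 fold change was 0.78 (edgeR adjusted p = 0.0654). Across all alternatives the adjusted p-value of *Igf2* in edgeR or DESeq2 ran from 3.90e-05 to 0.769.

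*H19* (ENSMUSG00000000031, chromosome 7, 142575529 to 142578143, minus strand) is a long noncoding RNA, spliced and highly abundant in the fetus. It had 17969, 17718 and 19545 normalized counts in WT libraries and 57816, 34378 and 27355 in those labelled DKO. The order of the 6 libraries was that of *Igf2*, with no overlap between the groups. The means were 18411 ± 990 and 39850 ± 15951 (SD, n = 3), and the log2 fold change was 1.11 (SE 0.249, edgeR adjusted p = 0.234, DESeq2 adjusted p = 0.00168). Without DKO replicate 1 it was 0.73 (edgeR adjusted p = 0.108), and over all alternatives the adjusted p-value in edgeR or DESeq2 ran from 8.41e-05 to 0.769.

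The ratio of *H19* to *Igf2* counts, which needs no scaling between libraries, was 1.59, 1.60 and 1.51 in WT libraries and 1.33, 1.55 and 1.47 in DKO replicates 1 to 3. The means were 1.57 ± 0.0474 and 1.45 ± 0.110 (SD, n = 3), a log2 difference of -0.12 (two-sided exact permutation test, p = 0.2, where 3 against 3 cannot give less than 0.1). The fold changes of the 2 genes were each larger in size than the difference between them. The log2 difference was -0.19 within number 40972, with 1 library a group, and -0.08 within number 47347. It was -0.058 without DKO replicate 1.

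**Figure D2:**
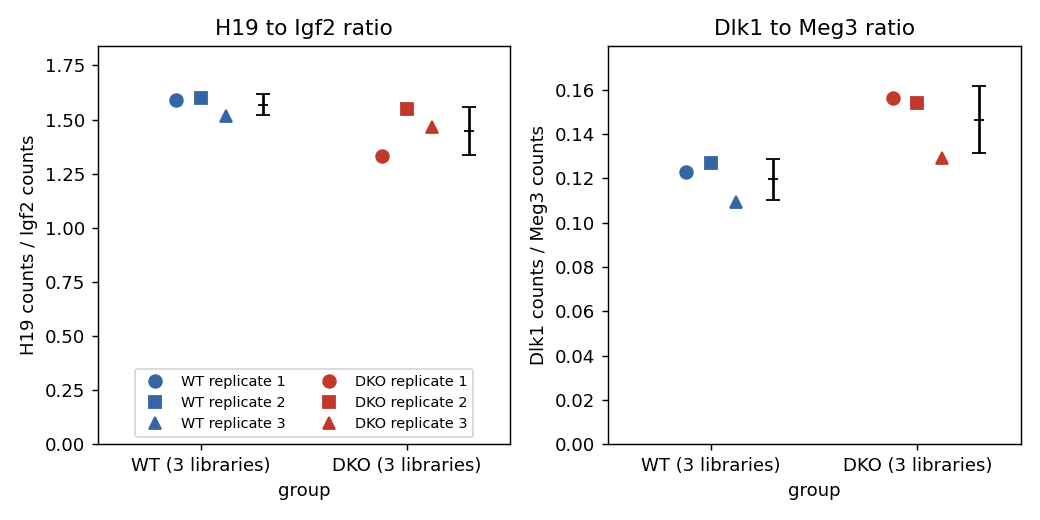
Ratio of *H19* to *Igf2* counts (left) and of *Dlk1* to *Meg3* counts (right) in each library, with the group mean and SD in black. The *H19* to *Igf2* ratios of the groups overlap, whereas the 3 DKO ratios of *Dlk1* to *Meg3* (0.129 to 0.156) lie above the WT ratios (0.109 to 0.127).

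Between *H19* and the far end of *Igf2*, few other reads were counted. The noncoding gene Gm33148 held 10, 20 and 12 counts in WT libraries and 14, 7 and 6 in those labelled DKO. The row of *Mir483*, in the *Igf2* intron, held 1, 1 and 0 counts against 10, 1 and 1, too few for a comparison. *Mir675*, inside the *H19* exon that carries both sequences shown above, was listed at 0 in all 6 libraries. Among the other imprinted genes, *Igf2os*, transcribed antisense to *Igf2*, averaged 25.5 ± 13.3 in WT libraries and 47.7 ± 4.23 (SD, n = 3, normalized counts). Its groups did not overlap, and its log2 fold change of 0.89 had an adjusted p-value of 0.637 in edgeR. *Igf2* shares 1.71% of its exon bases with *Igf2os*, and whether the counting used strand is not given in the sources used here, so the reads of that overlap cannot be told apart.

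In the Dlk1-Dio3 domain, the rows of both protein-coding members were higher in each library labelled DKO. *Dlk1* (ENSMUSG00000040856, chromosome 12, 109452823 to 109463336, plus strand) encodes a transmembrane protein of the Delta family that restrains adipocyte differentiation. Its normalized counts were 826, 829 and 901 in WT libraries, and 2736, 1820 and 1244 in DKO replicates 1 to 3. The WT libraries lay within a narrow range, and the DKO libraries were above it by different amounts. From 852 ± 42.4 to 1933 ± 752 (SD, n = 3), the log2 fold change was 1.18 (SE 0.243, edgeR adjusted p = 0.204, DESeq2 adjusted p = 9.73e-04). It was 0.83 without DKO replicate 1 (edgeR adjusted p = 0.0812).

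*Rtl1* (ENSMUSG00000085925, chromosome 12, 109589194 to 109600330, minus strand) is a gene of retrotransposon origin with known roles in the placenta and in fetal muscle. It had 514, 593 and 629 normalized counts in WT libraries and 1664, 1088 and 853 in those labelled DKO, in the same order of DKO libraries as *Dlk1*. The means were 579 ± 59.0 and 1202 ± 417 (SD, n = 3), and the log2 fold change was 1.05 (SE 0.227, edgeR adjusted p = 0.205, DESeq2 adjusted p = 0.00316). Without DKO replicate 1 it was 0.73 (edgeR adjusted p = 0.135). Across all alternatives the adjusted p-values in edgeR or DESeq2 ran from 1.05e-04 to 0.735 for *Dlk1* and from 6.65e-04 to 0.769 for *Rtl1*. The miRNA genes opposite the *Rtl1* exon, *Mir127*, *Mir136*, *Mir431*, *Mir432*, *Mir433* and *Mir434*, were listed at 0 in all libraries, and 8.12% of the *Rtl1* exon bases are shared with genes of the other strand. As the strand setting is not given, reads of plus-strand RNA that crosses the rest of this exon cannot be told from reads of *Rtl1*. The part of such reads in the *Rtl1* row was not tested.

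*Meg3* (ENSMUSG00000021268, chromosome 12, 109541001 to 109571726, plus strand) is the first noncoding RNA of the maternal chromosome in this domain. Its normalized counts were 6715, 6538 and 8251 in WT libraries and 17498, 11815 and 9641 in those labelled DKO, again with no overlap. The means were 7168 ± 942 and 12985 ± 4057 (SD, n = 3), and the log2 fold change was 0.86 (SE 0.215, edgeR adjusted p = 0.285). Without DKO replicate 1 it was 0.57 (edgeR adjusted p = 0.290). The range of the adjusted p-value in edgeR or DESeq2 over all alternatives was from 0.00251 to 0.911.

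For *Rian* and *Mirg*, further along the domain, the groups overlapped. *Rian* (ENSMUSG00000097451, chromosome 12, 109603940 to 109661716, plus strand), which hosts small nucleolar RNAs, had 4832, 4370 and 6101 normalized counts in WT libraries and 15291, 4846 and 6859 in DKO replicates 1 to 3. Only DKO replicate 1 and, by less, DKO replicate 3 were above all WT libraries. Its log2 fold change of 0.82 (SE 0.356, edgeR adjusted p = 0.647) became 0.19 without DKO replicate 1 (edgeR adjusted p = 0.839). *Mirg* (ENSMUSG00000097391, chromosome 12, 109729764 to 109749460, plus strand), a host of miRNAs at the far end of the series, had 525, 573 and 708 against 1668, 757 and 694 normalized counts. DKO replicate 3 was below WT replicate 3 here, and the log2 fold change of 0.78 (SE 0.306, edgeR adjusted p = 0.561) fell to 0.25 without DKO replicate 1 (edgeR adjusted p = 0.759).

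Libraries therefore differed along the Dlk1-Dio3 domain as well as in height, mainly through 1 library, DKO replicate 2. Whether this belongs to the domain or to that library was not tested. Relative to the WT mean, DKO replicate 2 stood at 2.14 for *Dlk1*, 1.65 for *Meg3* and 1.88 for *Rtl1*, but at 0.950 for *Rian* and 1.26 for *Mirg*. The 3 other rows with the most counts behaved in DKO replicate 2 as *Rian* did: Gm26945 stood at 0.840, Gm37899 at 0.852 and B830012L14Rik at 1.06 of the WT mean. Gm23600, a row with 389 counts between Gm26945 and Gm37899, stood at 1.68, and its groups did not overlap. DKO replicate 1 stood between 2.43 and 3.21 in each of the 14 rows with at least 300 counts, and was the highest library in all 14. Over all 6 libraries the log2 fold changes were 0.68 for Gm37899, 0.88 for B830012L14Rik and 0.85 for Gm26945 (edgeR adjusted p = 0.760, 0.593 and 0.679). *Dio3*, the deiodinase gene that closes the domain, averaged 19.5 ± 5.40 in WT libraries and 11.03 ± 7.77 in those labelled DKO (SD, n = 3, normalized counts), and its log2 fold change was -0.81 (edgeR adjusted p = 0.842).

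**Figure D3:**
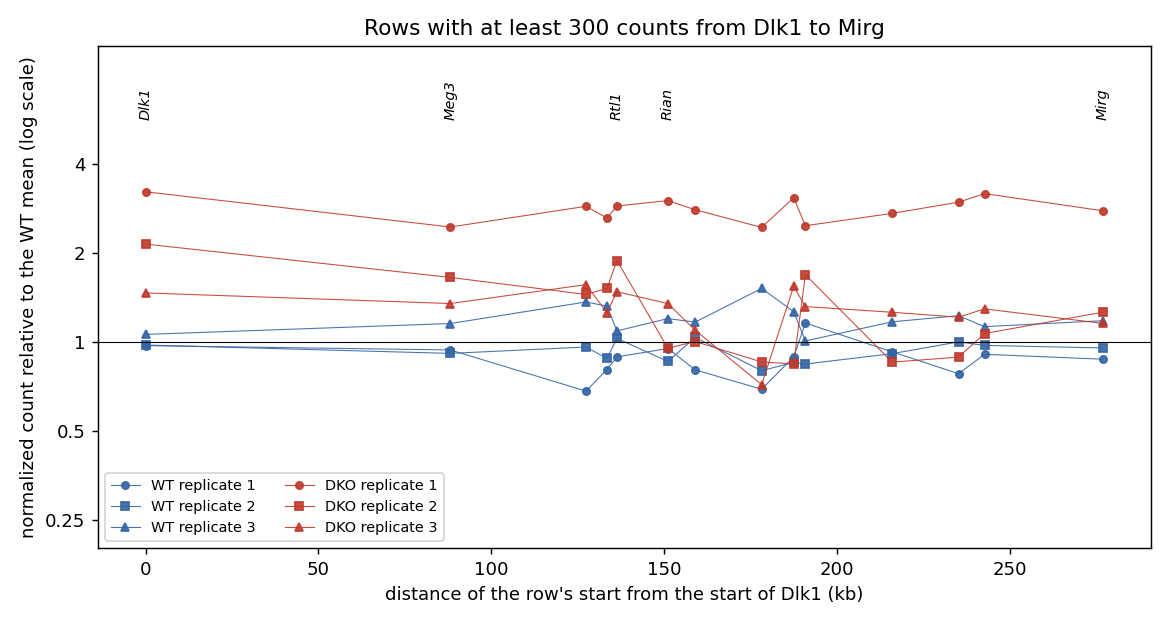
Normalized count relative to the WT mean (log scale) against the distance from the start of *Dlk1* in kb, for the 14 rows with at least 300 counts, with 1 line per library. The line of DKO replicate 1 stays above all others, and that of DKO replicate 2 goes from 2.14 at *Dlk1* to 0.950 at *Rian*.

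The ratio of *Dlk1* to *Meg3* counts was 0.123, 0.127 and 0.109 in WT libraries and 0.156, 0.154 and 0.129 in DKO replicates 1 to 3. The lowest DKO ratio was just above the highest WT ratio. The means were 0.120 ± 0.00928 and 0.146 ± 0.0151 (SD, n = 3), a log2 difference of 0.29 (two-sided exact permutation test, p = 0.1, the smallest value that 3 against 3 can give). The difference was 0.52 within number 40972, with 1 library a group, and 0.18 within number 47347. It was 0.24 without DKO replicate 1. The ratio of *Rian* to *Meg3* was 0.720, 0.668 and 0.739 in WT libraries against 0.874, 0.410 and 0.711 (two-sided exact permutation test, p = 0.8), with DKO replicate 2 lowest. For *Rtl1* to *Dlk1* the log2 difference was -0.11 (two-sided exact permutation test, p = 0.2).

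The domain holds 61 rows of miRNA genes among its 104 rows, with 3793 counts in all 6 libraries together. These are reads of long RNA over hairpins, not mature miRNAs, which total RNA libraries of this kind do not capture well. Their summed normalized counts were 443, 474 and 518 in WT libraries and 1382, 586 and 609 in those labelled DKO, 1.79 times as much on average, with no overlap between the groups. *Mir665*, *Mir493* and *Mir1188*, whose mature sequences are shown above, had the most counts, with 425, 329 and 314 in all. Of the 26 miRNA rows that share bases with an exon of another gene, 19 were at 0 in every library, against 0 of the other 35. A 0 in such a row is therefore not read as absence of the miRNA.

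The windows just upstream of *Dlk1* and *Meg3* are shown because the ratio of these 2 genes was compared above. Their highest library, DKO replicate 1, was the highest for all 10 genes. RefSeq promoter windows (GRCm38.p6) were found for 7 of the 10 genes, some with more than 1. In each window of 250 bases, the core promoter letters TATAAA, the GC box letters GGGCGG, and the palindrome GGGGCCCC were searched on both strands and are printed in capitals. They occurred in 12.4%, 32.7% and 0.889% of 32851 such windows. That of *Dlk1* (chr12:109452573-109452822, plus strand) holds none of the 3. The *Meg3* window that ends just before the annotated start of the gene (chr12:109540746-109540995, plus strand) holds TATAAA on each strand, as 2 matches that overlap. The bases that follow this window were not found in the annotated transcripts of *Meg3*. They begin before the annotated start at 109541001, so this does not show whether the window is a promoter of *Meg3*. A later *Meg3* window (chr12:109545148-109545397), inside the gene and not printed, holds none of the 3. Of the other windows, also not printed, that of *Peg3* holds GGGGCCCC, and that of *Plagl1* and some of *Igf2* hold GGGCGG. Those of *Rian* and *Mirg* hold none. The windows of *Plagl1* and *Mirg*, and some of *Igf2*, lie inside the annotated genes.
Dlk1: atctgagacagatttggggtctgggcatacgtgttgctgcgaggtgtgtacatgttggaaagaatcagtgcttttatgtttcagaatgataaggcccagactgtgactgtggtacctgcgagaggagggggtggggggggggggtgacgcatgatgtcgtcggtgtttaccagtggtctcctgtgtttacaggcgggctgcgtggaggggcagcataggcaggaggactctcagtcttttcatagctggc
Meg3: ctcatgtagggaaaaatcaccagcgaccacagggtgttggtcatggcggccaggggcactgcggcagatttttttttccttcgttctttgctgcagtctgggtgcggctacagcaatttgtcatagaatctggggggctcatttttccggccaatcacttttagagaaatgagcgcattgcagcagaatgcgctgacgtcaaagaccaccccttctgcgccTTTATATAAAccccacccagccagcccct
A match is a description of letters only, and no binding was measured.

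The other 3 genes had the smallest fold changes. *Peg3* (ENSMUSG00000002265, chromosome 7, 6703892 to 6730431, minus strand), which encodes a zinc finger protein, had 9654, 9241 and 12429 normalized counts in WT libraries and 17491, 10991 and 12838 in those labelled DKO. *Plagl1* (ENSMUSG00000019817, chromosome 10, 13060504 to 13131694, plus strand), a zinc finger transcription factor gene, had 2982, 2768 and 4817 against 7434, 3202 and 4316. *Cdkn1c* (ENSMUSG00000037664, chromosome 7, 143458339 to 143461050, minus strand), which encodes a cyclin-dependent kinase inhibitor that limits growth, had 710, 676 and 984 against 1524, 758 and 894. For all 3, WT replicate 3 was above DKO replicate 2, and for *Plagl1* and *Cdkn1c* also above DKO replicate 3. The log2 fold changes were 0.40 ± 0.196 for *Peg3*, 0.50 ± 0.305 for *Plagl1* and 0.42 ± 0.257 for *Cdkn1c* (± SE), with edgeR adjusted p-values of 0.732, 0.821 and 0.823. Without DKO replicate 1 they were 0.18, 0.08 and 0.05, and *Plagl1* stood at 0.79 without WT replicate 3. Of the *Cdkn1c* exon bases, 30.7% are shared with Gm44732 on the other strand. Reads over those bases may be missing from its count, as in the overlapping miRNA rows above. Its count and its level per kb may therefore be too low.

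**Figure D4:**
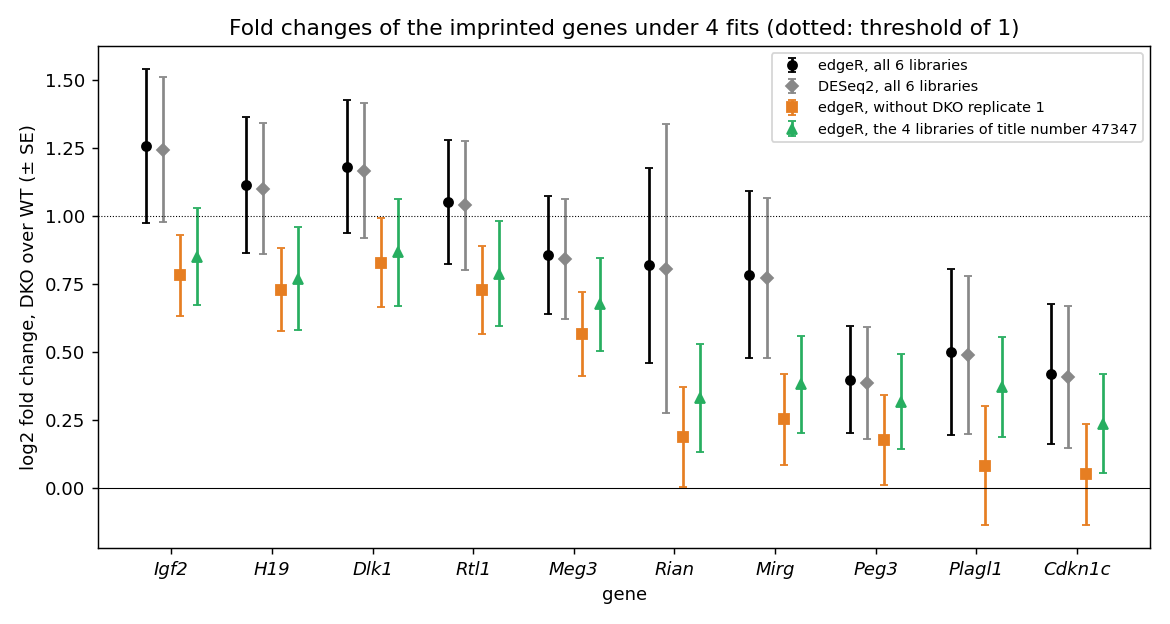
Log2 fold change (DKO over WT, ± SE) of each imprinted gene in edgeR and DESeq2 with all 6 libraries, in edgeR without DKO replicate 1, and in edgeR with the 4 libraries of number 47347, with the threshold of 1 dotted. All values are above 0, and the 4 genes above 1 in the full fits (*Igf2*, *H19*, *Dlk1* and *Rtl1*) lie between 0.73 and 0.87 in the reduced ones.

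WT replicate 3 was the highest WT library for all 10 genes, and it shares number 40972 with DKO replicate 1. Relative to the WT mean, WT replicates 1 to 3 had a median over the 10 genes of 0.931, 0.927 and 1.16, and DKO replicates 1 to 3 one of 2.82, 1.45 and 1.34. Within number 40972 the log2 ratio of DKO replicate 1 to WT replicate 3 was largest for *Igf2* (1.75), *Dlk1* (1.60), *H19* (1.56) and *Rtl1* (1.40), and smallest for *Peg3* (0.49). With the 4 libraries of number 47347 alone, the log2 fold changes were 0.87 for *Dlk1*, 0.85 for *Igf2*, 0.79 for *Rtl1*, 0.77 for *H19* and 0.68 for *Meg3*. They were between 0.24 and 0.38 for the other 5. *Igf2*, *Dlk1*, *H19* and *Rtl1* were thus the first 4 in both numbers, whereas *Meg3*, the next in number 47347, stood at 1.08 in number 40972, behind *Rian* (1.33) and *Mirg* (1.24).

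Other imprinted genes were less one-sided. Of 65 listed, 57 had enough counts, of which 35 were higher and 22 lower in skin labelled DKO, with a median log2 fold change of 0.08. The share higher over all genes tested was 52.9%. Of 58 tested without DKO replicate 1, 27 were higher and 31 lower, and the median turned to -0.02. With all 6 libraries, 7 of the 57 were higher and 1 lower at an unadjusted p under 0.05 in edgeR, against 4.96% and 2.54% of all genes. None was called in edgeR or DESeq2. Libraries labelled DKO were all above the WT libraries for 1 of the 57 and all below for 3, against 7.24% and 5.96% of all genes. The smallest p-values belonged to *Htra3*, a secreted protease gene (906 ± 126 to 1300 ± 273 normalized counts, SD, n = 3), *Nnat*, a small membrane protein gene (434 ± 41.3 to 683 ± 252), and *Usp29*, a ubiquitin protease gene beside *Peg3* (150 ± 29.3 to 252 ± 90.7). Their log2 fold changes were 0.52, 0.65 and 0.75, with edgeR adjusted p-values of 0.486, 0.524 and 0.541. These became 0.42, 0.32 and 0.55 without DKO replicate 1.

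The genes of the IGF pathway with enough counts had smaller fold changes in edgeR than *Igf2* itself, a difference that was not tested. Of 25 genes of the IGF pathway other than *Igf2*, 23 had enough counts, 17 were higher and 6 lower, and the median log2 fold change was 0.22 (0.16 without DKO replicate 1). The share higher over all genes tested was 52.9%. None of the 23 was called in edgeR or DESeq2, and 3 had an unadjusted p under 0.05 in edgeR, all higher, against 4.96% of all genes. *Igfbp6*, whose product binds IGF2 in preference to IGF1, had 68.3, 84.9 and 83.8 normalized counts in WT libraries and 222, 167 and 102.5 in those labelled DKO, with no overlap. Its log2 fold change was 1.04 (edgeR adjusted p = 0.330, DESeq2 adjusted p = 0.0649). *Igf2bp2*, which encodes an RNA-binding protein of *Igf2* mRNA, had 295, 310 and 178 against 555, 523 and 359, also without overlap (log2 fold change 0.88, edgeR adjusted p = 0.341). *Grb10*, an imprinted adaptor gene that restrains the insulin and IGF receptors, had 1857 ± 203 and 2584 ± 824 (SD, n = 3), with a log2 fold change of 0.48 (edgeR adjusted p = 0.647) that was 0.17 without DKO replicate 1. Of the receptors, *Igf1r* had a log2 fold change of 0.23 and *Igf2r*, which clears IGF2, one of 0.15, and the ligand gene *Igf1* one of 0.24 (edgeR adjusted p = 0.814, 0.905 and 0.940). These were 0.27, 0.08 and, with the sign turned, -0.21 without DKO replicate 1.

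*Cdkn1c* was also set beside the other cyclin-dependent kinase inhibitor genes. Of 6 listed, 5 had enough counts, and in edgeR none had an unadjusted p under 0.05. The log2 fold changes were 0.03 for *Cdkn1a*, -0.15 for *Cdkn1b*, 0.40 for *Cdkn2b*, -0.03 for *Cdkn2c* and 0.09 for *Cdkn2d*, each with overlapping groups. The value of *Cdkn2b* was 0.15 without WT replicate 1 and 0.089 without DKO replicate 2. *Cdkn2a* held 2 counts in WT replicate 3 and 0 in the other libraries and was not tested. Of 24 proliferation genes, 10 were higher and 14 lower, with a median of -0.01 and none with an unadjusted p under 0.05 in edgeR.

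Markers of other cells in the piece were read beside these results. Genes of keratinocytes, dermal fibroblasts and skeletal muscle were detected, and no gene of these 3 lists was at 0 in all 6 libraries. Skeletal muscle genes were higher in the skin labelled DKO for 38 of 39 tested, against 52.9% of all genes, with a median log2 fold change of 0.99. Of these muscle genes, 33 had an unadjusted p under 0.05 in edgeR, all higher, against 4.96% of all genes. None was called in edgeR and 15 were called higher in DESeq2, which also called 1 developmental myosin or myogenic gene and 2 adipocyte genes. DESeq2 called 0.466% of all genes higher. With DKO replicate 1 left out, 38 muscle genes were higher, with a median of 0.53, and the adipocyte median went from 0.19 to -0.24. The summed level of the muscle genes was 6533 to 7494 CPM in WT libraries and 10502 to 21928 CPM in those labelled DKO, or 3.15, 1.51 and 1.51 times the WT mean in DKO replicates 1 to 3. This sum weighs *Ttn* most, with a WT mean of 62614 normalized counts against 9946 for *Acta1*, the next gene. DKO replicates 2 and 3 held 87434 and 95866 normalized counts of *Ttn*, and 18203 and 17093 of *Acta1*. Developmental myosins and myogenic regulators summed to 528 to 584 CPM and 911 to 2199 CPM, or 4.01, 1.77 and 1.66 times. The dermal fibroblast list summed to 20081 to 24874 and 23006 to 33178 CPM, the adipocyte list to 2077 to 2977 and 1928 to 4011 CPM, the keratinocyte list to 11845 to 11899 and 12330 to 15782 CPM, the endothelial list to 319 to 330 and 291 to 418 CPM, and the red blood cell list to 135 to 164 and 65.7 to 176 CPM. DKO replicate 1, highest for the 10 imprinted genes, was also highest for both muscle lists and for the adipocyte and endothelial lists, and DKO replicate 2 was highest for the fibroblast and keratinocyte lists. Members higher in the skin labelled DKO were 10 of 10 tested for the developmental myosins and myogenic regulators, 19 of 20 for fibroblasts, 10 of 14 for adipocytes, 7 of 12 for keratinocytes, 8 of 10 for endothelial cells and 2 of 6 for red blood cells. The share over all genes tested was 52.9%. Ratios to the muscle list follow, but the part of these cells in the imprinted gene results was not tested.

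**Figure D5:**
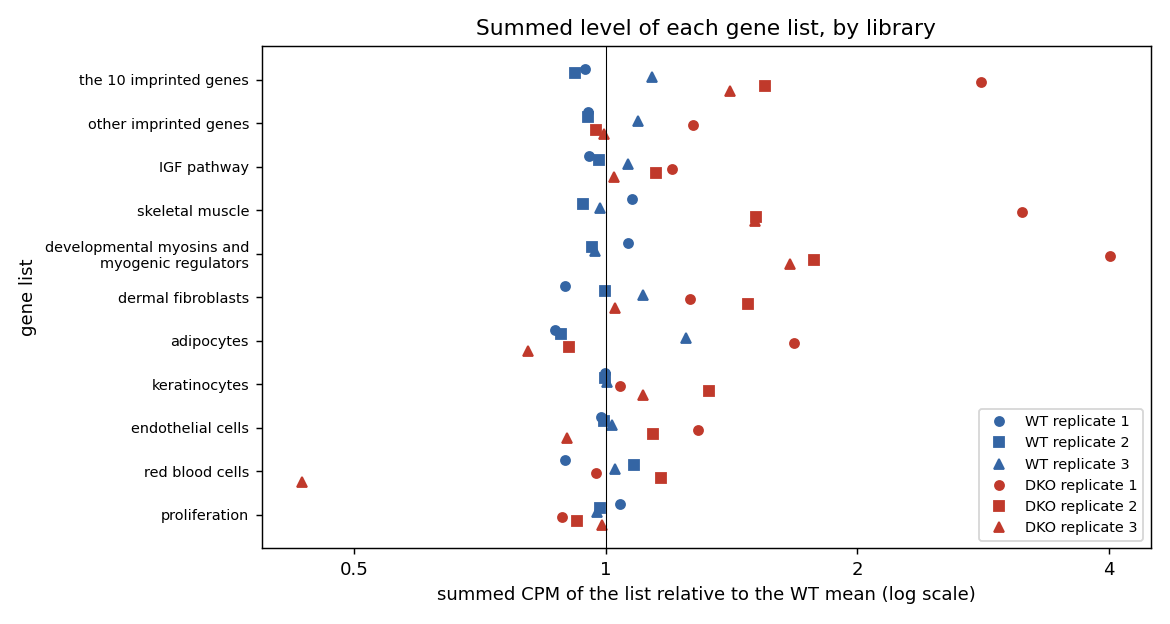
Summed CPM of each gene list relative to the WT mean (log scale), with 1 point per library. The sum of the 10 imprinted genes and both muscle lists place DKO replicate 1 farthest right and the other 2 DKO libraries next, whereas the other imprinted genes, IGF pathway and proliferation lists stay closer to 1.

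Set against the summed muscle list in the same library, *Igf2*, *H19*, *Dlk1* and *Rtl1* differed by 0.21, 0.09, 0.16 and 0.05 on the log2 scale from WT to DKO (two-sided exact permutation test, p = 0.2, 0.6, 0.6 and 0.9). *Meg3* differed by -0.13, *Rian* by -0.29 and *Mirg* by -0.27 (two-sided exact permutation test, p = 0.5, 0.5 and 0.3). *Peg3*, *Plagl1* and *Cdkn1c* stood at -0.57, -0.49 and -0.57 relative to muscle (two-sided exact permutation test, p = 0.1, 0.2 and 0.1). These 10 tests were not adjusted, none can fall below 0.1, and with 3 libraries a group they do not show that the ratios were alike. The muscle sum weighs *Ttn* most, so the ratios do not stand for each muscle gene. The values without DKO replicate 1 ran from -0.52 for *Cdkn1c* to 0.23 for *Dlk1*, those of *H19* and *Rtl1* were both 0.14 and that of *Meg3* was -0.015 (two-sided exact permutation tests of 3 against 2, p from 0.2 to 1). Values per gene of cells other than muscle were not separated.

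The genes whose level followed *H19*, *Igf2*, *Dlk1* and *Meg3* most closely are given as a description, over 6 libraries of which DKO replicate 1 is the farthest from the rest. Among 12329 genes with a mean normalized count of at least 100, *H19* had the highest Pearson r with *Mamld1* (0.998), *Igf2* (0.998) and *Bicc1* (0.996). *Igf2* had it with *Sypl2* (0.998), *H19* (0.998) and *Mypn* (0.996), of which *Sypl2* and *Mypn* are muscle genes. *Dlk1* had it with *Des* (0.997), which encodes the muscle filament protein desmin, *Mamld1* (0.996) and *Pcdhgc3* (0.995), and *Meg3* with *Agt* (0.997), *Mamld1* (0.994) and *Fras1* (0.994).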

How the data were processed

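Total RNA of full-thickness P4 back skin was depleted of rRNA and sequenced by the authors in paired-end mode. Reads were trimmed with Trimmomatic 0.36, mapped with STAR 2.5.2b to GRCm38 and counted with featureCounts of Subread 1.5.2. The deposited values are raw counts per gene, without normalization, and the strand setting is not given in the sources used here. Tables of 7 epidermis libraries, of another age, held only 0 and were not used, and 0 value columns were left unmapped.

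Counts of the 6 P4 libraries (replicates numbered in accession order) were tested in edgeR 4.0.16 under R 4.3.3: filterByExpr (20168 genes kept), TMM scaling and the quasi-likelihood F test without a block, with Benjamini-Hochberg adjustment over all genes kept. A gene was called when its adjusted p was under 0.05 and its log2 fold change exceeded 1 in size. The biological coefficient of variation was 20.0%. Normalized counts are counts scaled by the effective library size to the mean of the 6 sizes. Levels between genes are CPM per kb of counted exon length. Ratios of counts were compared by exact permutation of libraries. The floor of 3 counts reflects counting error alone, as reads carried no molecular identifiers in the sources used here.

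Alternatives were DESeq2 1.42.0, RLE factors, total counts, other filters on low counts, the title number as a block, library sizes without muscle genes, no fold threshold, and each library left out. The libraries of number 47347 alone, and the list medians and muscle-relative values without DKO replicate 1, were added after seeing the data. On simulated counts of 200 genes changed 4-fold among 20205, edgeR recovered 200, with 2 other calls. That simulation held no smaller change and no outlying library. It therefore does not show how often changes of the size reported here would be called. All 10 genes are named, as are every gene of the cyclin-dependent kinase inhibitor list and, of the other imprinted and IGF lists, the 3 with the smallest p, the 3 locus rows with the most counts beside the members and the 3 genes most like *H19*, *Igf2*, *Dlk1* and *Meg3*. *Igf2os*, *Dio3*, *Igf1*, *Igf1r*, *Igf2r*, Gm33148, Gm23600 and the miRNA rows were named after their values were seen. The genes and lists were chosen with earlier results of these data known.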

Additional observations from a re-analysis of the deposited data

How the results depend on the processing

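The count of called imprinted genes was 0 in edgeR and 4 in DESeq2 or in edgeR with no filter on low counts, the same 4 genes each time (*Igf2*, *H19*, *Dlk1* and *Rtl1*). With no filter, 1 IGF pathway gene (*Igfbp6*) was called. Over 15 alternatives, all 150 fold changes of the 10 genes kept their direction and 8 passed the call threshold newly. The alternative with no fold threshold has the fold changes of the main fit itself, and several others refit the same libraries, so these values are not independent. With 1 library left out, 0 of the 10 genes, of the other imprinted genes and of the IGF genes were called each time, and their fold changes on the log2 scale ran from 0.78 to 1.48 for *Igf2*, 0.73 to 1.32 for *H19*, 0.83 to 1.42 for *Dlk1* and 0.73 to 1.25 for *Rtl1*, lowest without DKO replicate 1. The log2 difference of *H19* to *Igf2* ran from -0.17 to -0.058 (without DKO replicate 1) and that of *Dlk1* to *Meg3* from 0.22 to 0.38. *Cdkn1a*, at 0.03, changed sign with total counts (-0.016), without WT replicate 3 (-0.0093) and without DKO replicate 2 (-0.18, against at most 0.21 with another library left out). *Cdkn2c*, at -0.03, did so without WT replicate 1 (0.0020) and without DKO replicate 3 (0.048), while the value without DKO replicate 2 was -0.077, and *Cdkn2d* ran from -8.79e-06 (without WT replicate 3) to 0.18. *Cdkn2b*, at 0.40, was 0.089 without DKO replicate 2. The cause of these moves was not tested.

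Whether the title number pairs libraries is not stated, and deviations of libraries that share it correlated between -0.02 and 0.23 over genes, against -0.15 to -0.10 for the others. The deviations were taken from each group's mean, so these correlations are tied to each other. They cannot decide what is paired by the title number. With this number as a replicate block, 0 of the 10 genes were called, with edgeR adjusted p-values of 0.061 for *Igf2* and between 0.069 and 0.070 for *Dlk1*, *Rtl1*, *H19* and *Meg3*, and the ratios differed by -0.14 and 0.35. Over all genes, 14 were called as reported (8 higher), 151 by DESeq2, 210 with no filter, 35 with the block, 22 with total counts (10 higher), 21 with library sizes without muscle genes (9 higher), 9 with number 47347 alone and 2 to 36 with 1 library left out. Depth limits the small rows of the 2 domains: *Mir483* and most hairpin rows held too few counts for a comparison.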
